A study of Mus musculus with 6 samples.

Results

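The BCL2 family decides whether a cell keeps its mitochondria intact or opens them and dies. Ribosome footprints on 8 of its genes were compared between activated and resting mouse CD4+ T cells, the helper lymphocytes of spleen and lymph nodes. The genes were chosen by Ensembl identifier from the 22322 genes of the deposited table, and all 8 were present in it. The survival genes are Bcl2 (ENSMUSG00000057329), Bcl2l1 (ENSMUSG00000007659) and Mcl1 (ENSMUSG00000038612). The pore-forming genes are Bax (ENSMUSG00000003873) and Bak1 (ENSMUSG00000057789). The BH3-only genes are Bcl2l11 (ENSMUSG00000027381), Bbc3 (ENSMUSG00000002083) and Pmaip1 (ENSMUSG00000024521). Ribosome profiling sequences the short stretches of mRNA that ribosomes cover, so a footprint count depends on how much mRNA there is and on how densely it is translated, and the counts alone do not separate these.

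The activated group held 3 libraries of CD4+ T cells activated with magnetic beads that carried CD3 and CD28 antibodies, and the resting group held 3 libraries of the same kind of cell without activation. The cells of both groups came from female C57BL/6J mice that were 6 weeks old and were purified by negative selection, and the labels name no transgene or deletion in either group. All 6 libraries are labelled 0 h and untreated, which is before any inhibitor of transcription or translation was added. For how long the cells were activated is not stated in the labels. Each group has biological replicates 2, 3 and 4 by its labels, which do not say whether separate mice gave them, so the p-values reflect the spread from library to library, part of which may be technical.

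BCL2, BCL-XL (the main protein of Bcl2l1) and MCL1 sit on the mitochondrial outer membrane and hold the death proteins in check. BAX and BAK, when set free, assemble into pores that release cytochrome c and start the caspase cascade. The BH3-only proteins BIM (from Bcl2l11), PUMA (from Bbc3) and NOXA (from Pmaip1) carry a short helix that fits into a groove of the survival proteins and blocks them. Resting T cells are known to depend on BCL2, which interleukin 7 sustains, while stimulation through the T cell receptor and CD28 is known to raise BCL-XL.

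CDS counts, which lie in coding sequence, summed to between 511483 and 1074656 in activated libraries and to between 437200 and 594508 in resting libraries. The 8 genes together had 691, 774 and 924 CDS counts in activated replicates 2, 3 and 4, against 275, 496 and 447 in resting replicates 2, 3 and 4. That was 0.102 ± 0.0286% of all CDS counts in activated cells and 0.0752 ± 0.0124% in resting cells (SD, n = 3 each), and the groups overlapped. Several members therefore rest on few counts, and counting error is a large part of their spread. The table names genes only by Ensembl identifier and the reference tables used here hold none, so the labelled cell type could not be checked against its markers and other genes of the death pathway could not be looked up by name.

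Bcl2l1 and Mcl1 rose in activated cells and Bbc3 fell. Of the 8 members, 7 passed the low-count filter in the CDS, and 3 of these 7 had an adjusted p under 0.05 in edgeR's quasi-likelihood test (2 higher, 1 lower). Among all 6775 genes tested, 45.7% passed that threshold, 24.1% higher and 21.6% lower, so the members' count is close to the background. Directions are relative to the typical gene under TMM scaling. In these bulk libraries, fewer cells of a type and less translated RNA per cell cannot be told apart. The median log2 change was 0.17 over the 7 members and -0.04 over all genes tested. CPM values below are counts scaled to library size with TMM factors, and the CPM of one gene is not set against that of another, because coding lengths were not available.

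**Figure D1:**
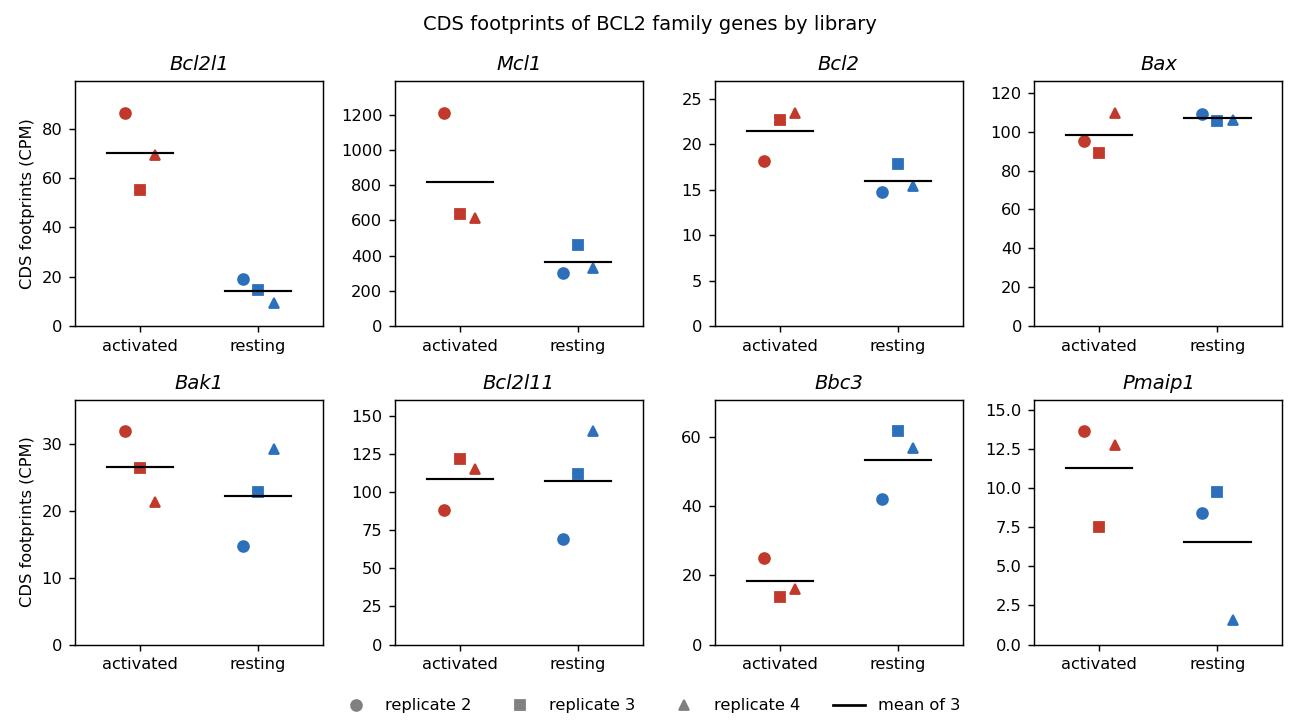
CDS footprints in CPM for each of the 8 genes, with activated libraries left and resting libraries right in each panel, 1 point per library and a line at the mean of 3. Each panel has its own vertical axis from 0. The groups do not overlap for Bcl2l1, Mcl1, Bcl2 and Bbc3, and they overlap for Bax, Bak1, Bcl2l11 and Pmaip1.

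Bcl2l1, which encodes the survival protein BCL-XL, had the largest change of the members. Its CDS held 38, 44 and 65 counts in activated replicates 2, 3 and 4, against 9, 9 and 6 counts in resting replicates 2, 3 and 4. Scaled for depth, these were 86.3, 55.3 and 69.2 CPM in activated cells, against 18.9, 14.6 and 9.22 CPM in resting cells. Every activated library lay far above every resting one. Its log2 change was 2.30 (SE 0.32, edgeR adjusted p = 2.12e-05), a 4.91-fold rise with a 95% interval of 3.09 to 7.82. Higher log2 changes were found in 198 of the 6775 genes tested. Bcl2l1 passed the low-count filter through its activated libraries, and its resting counts alone were too low for it. Tested without that filter, its log2 change was 2.33. The resting level is the weak side of this ratio, since it rests on 24 counts in all.

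Mcl1 encodes a survival protein that is degraded within a short time of being made and so follows its synthesis closely. Its CDS held 533, 506 and 579 counts in activated replicates 2, 3 and 4, against 143, 284 and 214 counts in resting replicates 2, 3 and 4. In CPM these were 1211, 636 and 616 in activated cells and 301, 461 and 329 in resting cells. The groups did not overlap, and activated replicate 2 stood well above the other activated libraries. Mcl1 changed by 1.16 on the log2 scale (SE 0.24, edgeR adjusted p = 0.000803), a 2.23-fold rise with a 95% interval of 1.58 to 3.16. Without activated replicate 2 it was 0.80 and still past the threshold. Mcl1 held 68.4 ± 7.69% of the CDS counts of the 8 genes in activated cells and 52.4 ± 4.70% in resting cells (SD, n = 3 each). This share of counts takes no account of gene length.

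Bcl2, the founding survival gene of the family, did not pass the threshold in the CDS. It had 8, 18 and 22 CDS counts in activated replicates 2, 3 and 4 (18.2, 22.6 and 23.4 CPM), against 7, 11 and 10 counts in resting replicates 2, 3 and 4 (14.7, 17.8 and 15.4 CPM). Each activated library was slightly above each resting one. For Bcl2 the log2 change was 0.45 (SE 0.32, 95% interval -0.24 to 1.13, edgeR adjusted p = 0.274), so these counts leave room for a rise of up to 2.19-fold and for a small fall. Over all exon counts, which add the untranslated regions, Bcl2 had 159 counts in activated and 75 in resting libraries, and the log2 change was 0.76 (edgeR adjusted p = 0.0126).

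In 4 of the 7 tested members the groups did not overlap in CDS CPM, namely Bcl2l1, Mcl1, Bcl2 and Bbc3. Over all genes tested the groups did not overlap in 54.8%.

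The pore-forming genes did not pass the threshold. Bax had 95.4, 89.3 and 109.6 CPM in activated replicates 2, 3 and 4, against 109.3, 105.4 and 106.1 CPM in resting replicates 2, 3 and 4. The groups overlapped, with the resting libraries inside the range of the activated ones. The log2 change was -0.12 (SE 0.18, 95% interval -0.50 to 0.27, edgeR adjusted p = 0.624), the narrowest interval of the members. With library totals alone as the scaling, Bax was -0.45 (edgeR adjusted p = 0.0444), but under that scaling the median of all genes was -0.38.

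Bak1, the other pore-forming gene, had 14, 21 and 20 CDS counts in activated replicates 2, 3 and 4, against 7, 14 and 19 counts in resting replicates 2, 3 and 4. In CPM the groups overlapped, at 26.5 ± 5.26 in activated cells and 22.2 ± 7.26 in resting cells (SD, n = 3 each). The log2 change was 0.17 (SE 0.33, 95% interval -0.52 to 0.86, edgeR adjusted p = 0.700). Relative to the median of all genes tested Bak1 was 0.20 higher, and 0.21 higher with library totals alone, a scaling under which both were lower (-0.17 for Bak1).

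Among the BH3-only genes, Bbc3 fell. Bbc3 encodes PUMA, which binds all of the family's survival proteins and is a known target of p53. Its CDS held 11, 11 and 15 counts in activated replicates 2, 3 and 4, against 20, 38 and 37 counts in resting replicates 2, 3 and 4. In CPM these were 25.0, 13.8 and 16.0 in activated cells and 42.1, 61.6 and 56.9 in resting cells. All activated libraries lay below all resting ones. Bbc3 had a log2 change of -1.64 (SE 0.30, 95% interval -2.28 to -1.01, edgeR adjusted p = 0.000316), a 3.12-fold fall. Of the 6775 genes tested, 152 had a lower log2 change. Bbc3 passed the low-count filter through its resting libraries, and its activated counts alone were too low for it. Without that filter its log2 change was -1.61.

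Bcl2l11 encodes BIM, the BH3-only protein known for removing T cells at the end of a response. It had 39, 97 and 108 CDS counts in activated replicates 2, 3 and 4, against 33, 69 and 91 counts in resting replicates 2, 3 and 4. In CPM the groups overlapped widely, at 108.5 ± 17.6 in activated cells and 107.1 ± 35.5 in resting cells (SD, n = 3 each). In both groups replicate 2 was the lowest library. The log2 change was 0.02 (SE 0.23, 95% interval -0.46 to 0.50, edgeR adjusted p = 0.951). Relative to the median of all genes tested Bcl2l11 was 0.06 higher, and it was 0.16 lower than that median without resting replicate 2. The interval leaves room for a change of up to about 1.42-fold upward.

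Pmaip1 encodes NOXA, which binds MCL1 in preference to BCL2. It had 6, 6 and 12 CDS counts in activated replicates 2, 3 and 4, against 4, 6 and 1 counts in resting replicates 2, 3 and 4, and it did not pass the low-count filter. The groups overlapped. Tested without that filter, its log2 change was 0.83 (SE 0.55, 95% interval -0.29 to 1.94, edgeR adjusted p = 0.314), and at this depth no change was detectable.

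**Figure D2:**
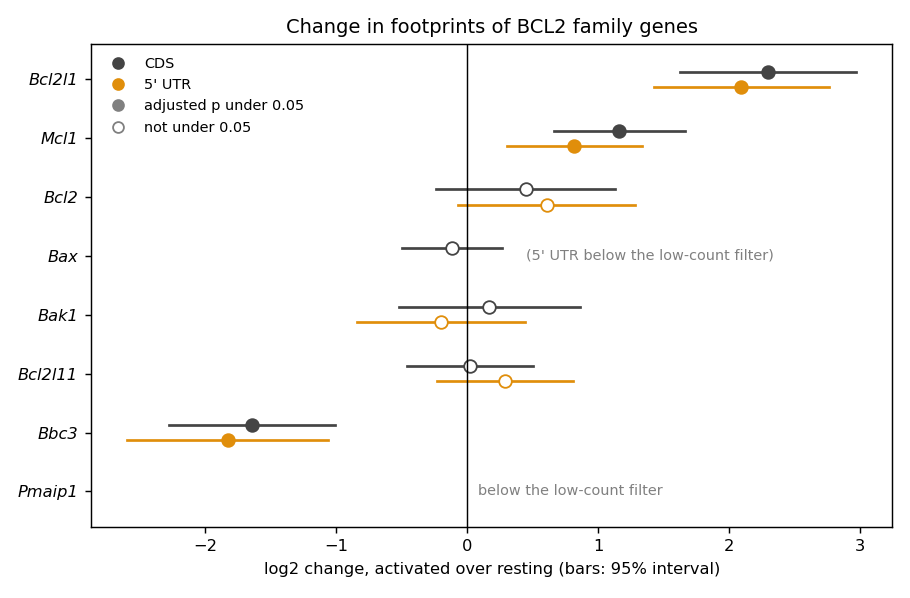
Log2 change of each member, activated over resting, in CDS counts (dark) and 5' UTR counts (orange), with 95% intervals. Filled points have an adjusted p under 0.05. Bcl2l1 and Mcl1 lie right of 0 and Bbc3 lies left of 0 in both kinds of count. Pmaip1, and Bax in the 5' UTR, had too few counts for the low-count filter.

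Ratios of CDS counts between members of the same library do not depend on the scaling between libraries. There were 6 such ratios, each compared by an exact permutation test, two-sided, with 20 possible assignments of libraries to groups. Only Bcl2l11 over Bcl2 and Bcl2l11 over Mcl1 set a death gene against a survival gene, and Bbc3 was not used in any ratio. The smallest p this design can give is 0.1, so no ratio can reach 0.05. Counts were not corrected for gene length, which leaves the size of a ratio without meaning but not its difference between groups.

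Bcl2l1 counts per Bcl2 count were 4.75, 2.44 and 2.95 in activated replicates 2, 3 and 4, against 1.29, 0.818 and 0.600 in resting replicates 2, 3 and 4. The groups did not overlap, and the mean log2 ratio differed by 1.87, a 3.66-fold shift toward Bcl2l1 in activated cells (exact permutation p = 0.1, adjusted 0.15 over 6 ratios). Bcl2l1 over Mcl1 was also higher in each activated library, at 0.0713, 0.0870 and 0.112 in activated replicates 2, 3 and 4, against 0.0629, 0.0317 and 0.0280 in resting replicates 2, 3 and 4 (log2 difference 1.14, exact permutation p = 0.1, adjusted 0.15). Both survival genes rose, and Bcl2l1 stood higher relative to Mcl1 in activated cells.

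Bcl2l11 counts per Mcl1 count set a BH3-only gene against a survival gene. They were 0.0732, 0.192 and 0.187 in activated replicates 2, 3 and 4, against 0.231, 0.243 and 0.425 in resting replicates 2, 3 and 4. Every activated library was below every resting one (log2 difference -1.06, exact permutation p = 0.1, adjusted 0.15). Without activated replicate 2 the difference was -0.61, and in exon counts it was -0.66 with overlapping groups (exact permutation p = 0.2). Mcl1 over Bcl2 differed by 0.73 on the log2 scale without overlap (exact permutation p = 0.1, adjusted 0.15), and by 0.32 without activated replicate 2. In exon counts Mcl1 over Bcl2 differed by 0.25 and the groups overlapped (exact permutation p = 0.5). Bcl2l11 over Bcl2 and Bax over Bak1 overlapped between the groups, with log2 differences of -0.33 and -0.40 (exact permutation p = 0.4, adjusted 0.4, for each).

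**Figure D3:**
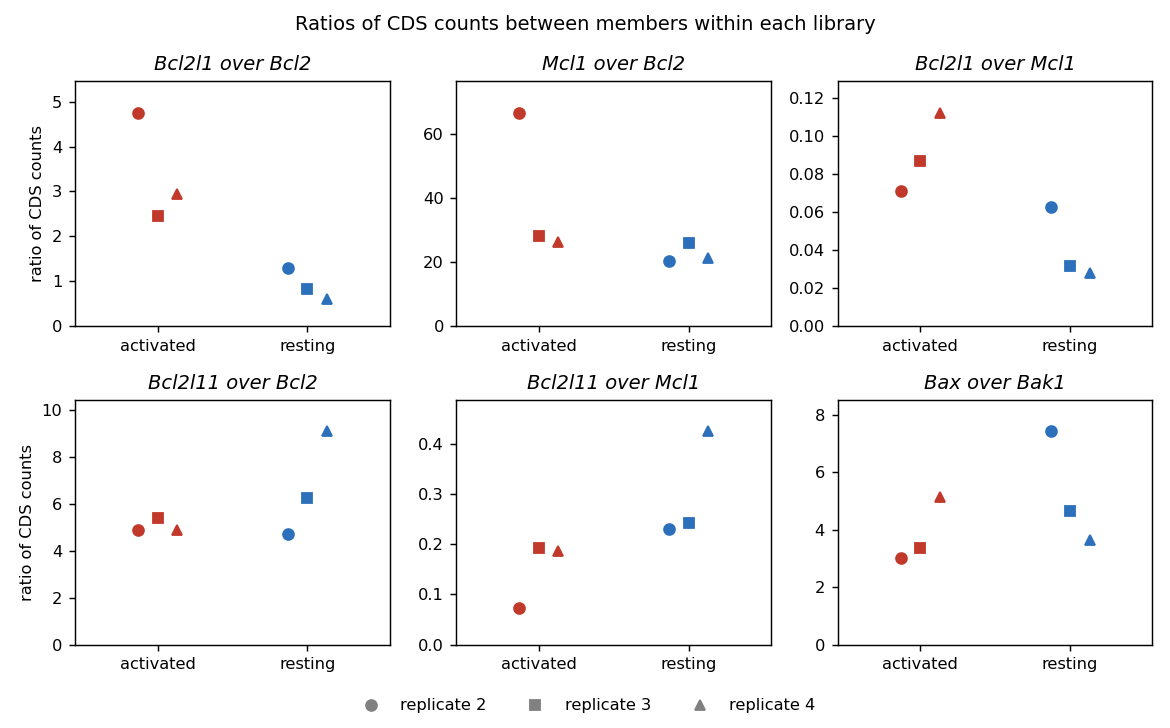
Ratio of CDS counts between pairs of members within each library, with activated libraries left and resting libraries right, 1 point per library and an axis from 0 in each panel. The groups separate for 4 of the 6 ratios and overlap for Bcl2l11 over Bcl2 and Bax over Bak1. Each of the 4 holds Bcl2l1 or Mcl1, the members that rose. The share of all gene pairs that separate was not computed. In exon counts the groups overlap for Mcl1 over Bcl2 and for Bcl2l11 over Mcl1.

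The 5' UTR is the leader of the mRNA ahead of the start codon. Over the 6 libraries together, 5' UTR counts exceeded CDS counts in 6 of the 8 members. Among the 7786 genes with at least 50 counts in these regions, the share was 6.74%. Library by library, they did so in all 6 libraries for Bak1 and Bcl2l11 and in 5 for Bcl2. For Bbc3 and Pmaip1 this held in 4 libraries, and for Bcl2l1 in 3. Expressed as a leader ratio, the number of 5' UTR counts for each 100 counts in the CDS, the median gene had 10.5. Ribosomes on a leader can be scanning or initiating, or can be translating short upstream reading frames, and the counts per gene do not tell which. Alternative first exons and the way records on the border of a start codon were assigned also enter this column, and their part in the values was not tested.

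Bak1 had a leader ratio of 187.4, Bcl2 of 186.8 and Bcl2l11 of 173.7 over all libraries. For each of these 3 genes at least 96.98% of the 7786 genes had a lower value. Lengths of leaders and coding sequences were not available, so a leader ratio and its rank describe counts and not footprint density, and a long leader raises both. Pmaip1 had 145.7, Bcl2l1 had 122.2 and Bbc3 had 103.8, the last of these barely above equal counts. Mcl1 had 26.3, still above the median gene. Bax stood apart from the other members with 1.24, from 5 counts in the 5' UTR beside 402 in the CDS. Of the pair of pore-forming genes, Bak1 thus had far more leader counts per CDS count than Bax.

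**Figure D4:**
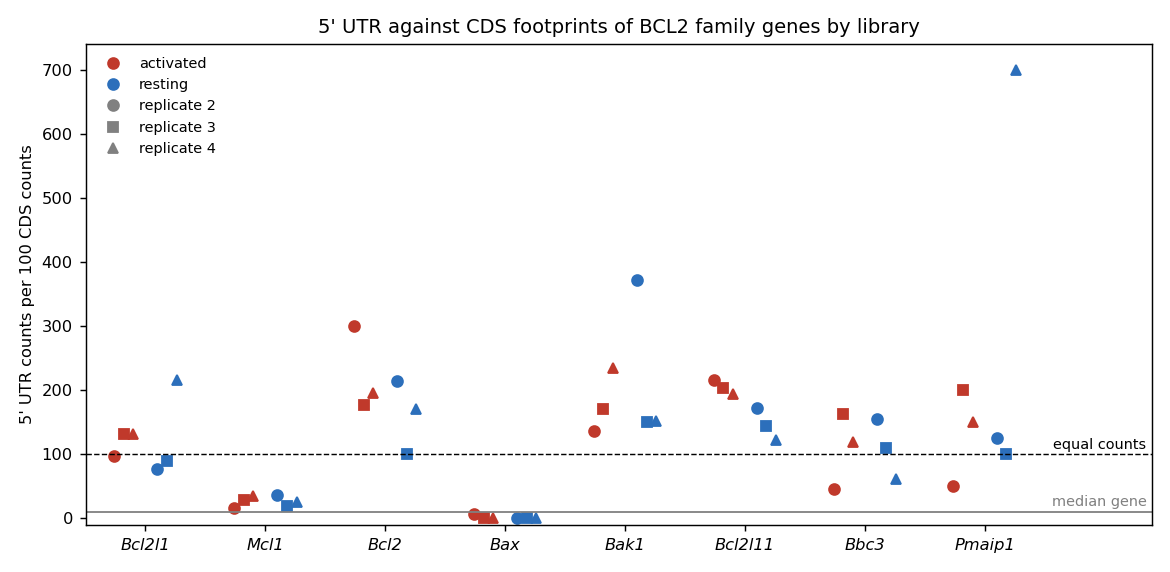
Leader ratio (5' UTR counts for each 100 CDS counts) of each member in each library, with activated libraries left and resting libraries right for each gene. The dashed line marks equal counts and the grey line the median of 7786 genes (10.5). Bak1 and Bcl2l11 lie above the dashed line in all 6 libraries, and Mcl1 and Bax lie below it in all 6. The highest point, Pmaip1 in resting replicate 4 at 700, is 7 counts over 1.

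The 5' UTR counts of the members changed in the same genes as the CDS counts. Of the 8 members, 6 passed the low-count filter on 5' UTR counts, and 3 of these 6 changed, Bcl2l1 and Mcl1 higher and Bbc3 lower, against 42% of the 2200 genes tested (22.2% higher, 19.8% lower). Bcl2l1 had 37, 58 and 86 counts in the 5' UTR in activated replicates 2, 3 and 4, against 7, 8 and 13 counts in resting replicates 2, 3 and 4. The groups were far apart, and the log2 change was 2.09 (SE 0.31, edgeR adjusted p = 0.000124). Here too Bcl2l1 passed the low-count filter through its activated libraries, and its resting counts alone were too low for it. Without that filter its log2 change in the 5' UTR was 2.17. CDS and 5' UTR counts come from the same 6 libraries and, for a gene, from the same mRNA.

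Bbc3 had 5, 18 and 18 counts in the 5' UTR in activated replicates 2, 3 and 4, against 31, 42 and 23 counts in resting replicates 2, 3 and 4. The log2 change was -1.83 (SE 0.36, edgeR adjusted p = 0.00101), close to that of its CDS, and the groups did not overlap in CPM. As in the CDS, Bbc3 passed the low-count filter through its resting libraries, and its activated counts alone were too low for it. Without that filter its log2 change in the 5' UTR was -1.74. Mcl1 had 86, 148 and 201 counts in the 5' UTR in activated replicates 2, 3 and 4, against 52, 54 and 54 counts in resting replicates 2, 3 and 4. Here too the groups were separate in CPM, and the log2 change was 0.82 (SE 0.24, edgeR adjusted p = 0.0140). That call is not firm: the adjusted p was 0.0609 with library totals alone (where the median of all genes was -0.22), 0.0570 without activated replicate 4, 0.0926 without resting replicate 3 and 0.0675 without resting replicate 4.

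The other tested members did not pass the threshold in the 5' UTR. Bcl2 had 24, 32 and 43 counts there in activated replicates 2, 3 and 4, against 15, 11 and 17 counts in resting replicates 2, 3 and 4. Its activated libraries were all above its resting ones in CPM, and the log2 change was 0.60 (SE 0.32, 95% interval -0.07 to 1.28, edgeR adjusted p = 0.138). The log2 change of Bcl2l11 was 0.29 (SE 0.24, edgeR adjusted p = 0.369) and that of Bak1 was -0.20 (SE 0.30, edgeR adjusted p = 0.632), and both overlapped between the groups. Pmaip1, below the filter, had 3, 12 and 18 counts in the 5' UTR in activated replicates 2, 3 and 4, against 5, 6 and 7 counts in resting replicates 2, 3 and 4, which overlap in CPM. In all, the groups did not overlap for 4 of the 6 tested members, against 53% of all genes tested in the 5' UTR.

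Set against the CDS of the same gene, the 5' UTR counts of 0 of 7 tested members changed, by edgeR's test of region and group in 1 model. Of 6050 genes tested that way, 0.0992% changed. An unadjusted p under 0.05 was found in 540 of the 6050 genes and in 0 of the 7 members, which does not set the members apart. The older form of edgeR's fit and limma voom also called 0 members. The test had little power for members with few counts: the 95% interval of the log2 change ran from -1.11 to 0.73 for Bcl2l1 and from -0.80 to 1.19 for Bcl2. It was narrowest for Bcl2l11, at -0.33 to 0.82.

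Of the 8 members only Bcl2l11 had leader ratios that did not overlap between the groups, against 13.1% of 7655 genes with CDS counts in every library, so the members' count is close to the background. Its leader ratio was 215.4, 203.1 and 194.4 in activated replicates 2, 3 and 4, against 172.7, 144.9 and 122.0 in resting replicates 2, 3 and 4. All activated libraries lay above all resting ones, and the fitted log2 change relative to the typical gene was 0.24 (SE 0.28, edgeR adjusted p = 0.859). Bbc3 had nearly equal leader ratios in the groups, at 109.7 ± 59.8 in activated cells and 109.2 ± 46.4 in resting cells (SD, n = 3 each). Mcl1 likewise had 26.7 ± 9.55 in activated cells and 26.9 ± 8.79 in resting cells (SD, n = 3 each).

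Bcl2l1 also gained counts outside its coding sequence and 5' UTR, in regions examined after the data had been seen. Its introns held 25, 33 and 34 counts in activated replicates 2, 3 and 4, against 1, 2 and 6 counts in resting replicates 2, 3 and 4. The log2 change was 3.17 (SE 0.56, edgeR adjusted p = 0.00660), in a test where 17% of 393 genes changed, and without resting replicate 3 the adjusted p was 0.0563. Bcl2l1 passed the low-count filter on introns through its activated libraries alone, since its resting counts were too low for it. The intron test is therefore no separate support for the rise. The 3' UTR of Bcl2l1 held 15, 11 and 4 counts in activated replicates 2, 3 and 4, against 0, 0 and 1 counts in resting replicates 2, 3 and 4, too few for the low-count filter. No other member passed the filter on intron counts, and no member passed it on 3' UTR counts. For each 100 CDS counts, Bcl2l1 had 62.6 intron counts over the activated libraries and 37.5 over the resting ones. Resting replicate 4 alone stood at 100, above every activated library, so in proportion to the CDS the groups overlapped.

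**Figure D5:**
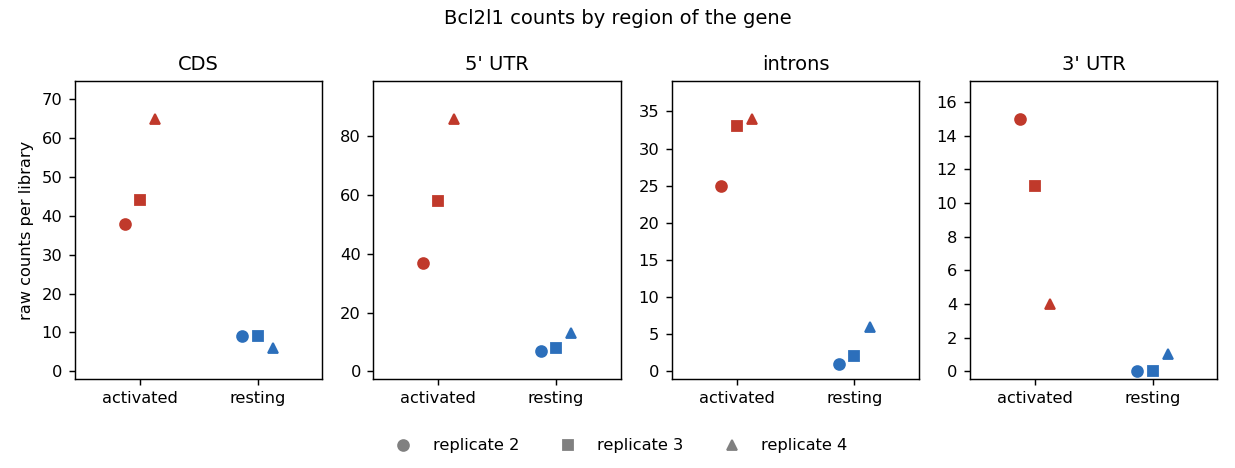
Raw counts of Bcl2l1 per library in the CDS, the 5' UTR, introns and the 3' UTR, with activated libraries left and resting libraries right. Counts are not scaled for depth, and each panel has its own axis. Activated libraries lie above resting ones in every panel, down to 4 against 1 in the 3' UTR.

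Several members have more than 1 annotated start, and which of them the deposited 5' UTR counts cover is not known, because the annotation used for counting is not stated. In the RefSeq tables for GRCm38.p6, the assembly also called mm10, Bcl2l1 spans chromosome 2 from 152758732 to 152833803 on the minus strand with 3 listed start windows, and Bbc3 spans chromosome 7 from 16308398 to 16318334 on the plus strand, also with 3. Bcl2l11 has 2, on chromosome 2 from 128126038 to 128162547 on the plus strand. Mcl1 (chromosome 3, 95656944 to 95663179, plus strand), Bcl2 (chromosome 1, 106538176 to 106714290, minus strand), Bax (chromosome 7, 45461695 to 45466903, minus strand) and Bak1 (chromosome 17, 27019812 to 27028627, minus strand) have 1 each. Pmaip1 has none in the promoter table.

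The 250 bases ahead of each of these 12 starts were searched on both strands for 3 short motifs, which were chosen with the results above known. One was a loose form of the kappaB motif of NF-kappaB, read as GGG, any 2 bases and TTTCC. It is wider than the usual motif, which has A or G after GGG. This loose form was found in 3 of the 12 windows, against 1.41% of 32851 windows of all genes. These belong to Bcl2l1, Mcl1 and Bbc3, the members that changed, of which 2 rose and 1 fell. Of the matches, only that of Bbc3 has A or G after GGG, and those of Bcl2l1 and Mcl1 do not. Those 3 genes hold 7 of the 12 windows, and the other members 5. The GC content was 53.2% in the matching Bcl2l1 window, 64.4% in that of Mcl1 and 76.4% in that of Bbc3, against a median of 52.4% over all windows, and the 1.41% takes no account of this. The E-box CACGTG was found in 2 windows, of Bax and Bbc3 (6.02% of all windows), and the TATA box TATAAA in 0 (12.4% of all windows). The kappaB matches are shown because they fall on the changed genes, each as 30 bases of the gene's strand from RefSeq with the match in capitals, which read as the reverse complement of the motif in all 3:
Bcl2l1 (chr2:152830916-152830945, minus strand): tacgcctctcGGAAAAACCCgggagtggtc
Mcl1 (chr3:95658683-95658712, plus strand): ccagccctccGGAAACGCCCgcccctttcc
Bbc3 (chr7:16309437-16309466, plus strand): ctggctgccgGGAAACCCCCcgcgccgagg

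The Mcl1 match ends 19 bases ahead of the listed start, the Bbc3 match 127 bases ahead and the Bcl2l1 match 209 bases ahead of 1 of its 3 starts. All windows of these genes lie inside the gene's RefSeq span given above. The bases ahead of the outer 5' end of the span were therefore not searched for them. A match of letters is not a bound site, and which of several starts these cells use cannot be read from counts per gene.

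For the members that changed, the gene with the most similar profile over the 6 libraries was sought among all genes tested in the CDS, by the root mean square difference of log2 CPM after each gene was centred on its own mean. For Bcl2l1 it was ENSMUSG00000040034 (0.16), with 42, 58 and 65 counts in activated replicates 2, 3 and 4, against 12, 9 and 8 in resting replicates 2, 3 and 4. For Mcl1 it was ENSMUSG00000028563 (0.10), whose activated replicate 2 was likewise its highest library for its depth. For Bbc3 it was ENSMUSG00000036918 (0.13). Within 0.2 lay 3 genes for Bbc3, 8 for Bcl2l1 and 16 for Mcl1. The search selected for likeness in these same libraries, so a shared pattern is no separate observation. The identifiers are unnamed in the tables used here.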

How the data were processed

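The deposited table holds raw counts per gene and region for 6 ribosome profiling libraries in 36 count columns, per the file headers. Per the submitters' processing notes, the authors used TopHat2 2.0.13, Bowtie 1.1.1.0, HTSeq and build mm10. No source used here states the annotation, trimming, ribosomal RNA filter or whether counting used strand, so counts of overlapping genes are uncertain. Between 65.8% and 79.6% of records per library were not uniquely aligned, and these and other summary rows stayed out of library sizes and tests. Columns were matched to libraries by the library name in the descriptions. Headers number the libraries of a group differently from the titles, and the titles' numbers are used.

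CDS, 5' UTR, intron and 3' UTR counts were each fitted by edgeR 4.0.16 under R 4.3.3, with filterByExpr, TMM, estimateDisp, glmQLFit in its newer form and a two-sided glmQLFTest. P-values were adjusted by Benjamini-Hochberg across the tested genes, with calls at 0.05. 5' UTR counts relative to CDS counts were tested in 1 model with a term per library, for genes with at least 6 counts in each region. SE is the log2 change over the square root of F. Ratios between members added 0.5 to each count. DESeq2 1.42.0 and limma 3.58.1 served as alternatives. Fits were tested on simulated data with the same spread for every region. That spread was close to that of the CDS counts and below that of the 5' UTR counts. The simulation therefore does not vouch for the tests that use 5' UTR counts. The named genes are the 8 members and, for those that changed, the gene of most similar profile. The members, lists, ratios and motifs were chosen with earlier results of these data known. Lists of other apoptosis genes and cell markers were drawn up by symbol, and none could be matched, because 0 Ensembl identifiers are in the reference tables. The members' own symbols came with the gene list.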

Additional observations from a re-analysis of the deposited data

Results flagged for a closer look

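Counts outside the CDS and the 5' UTR were higher in every activated library than in every resting one for Bcl2l1, in introns (92 counts in activated libraries together, 9 in resting libraries) and in the 3' UTR (30 counts in activated libraries together, 1 in resting libraries).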

How the results depend on the processing

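Leaving out each library gave 2654 to 3055 changed genes in the CDS (3097 with all) and 3 members each time. In the 5' UTR it gave 720 to 977 genes (924 with all) and 2 to 3 members, and DESeq2 gave 586. Relative to the CDS, 6 genes changed; 0 did with 1 scaling for both regions or with a replicate block, 16 with at least 20 counts per region, 24 with the older fit, 11 with limma voom and 0 to 5 without each library. No member was called in any of these. Intron counts gave 67 genes and 1 member (28 to 67 and 0 to 1 without each library), and 3' UTR counts 38 genes and 0 members (31 to 60 and 0 to 1).

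Bcl2l1, Mcl1 and Bbc3 had the same direction and stayed past the threshold in the CDS under all 17 alternatives (log2 1.96 to 2.52, 0.80 to 1.38 and -1.98 to -1.46). With upper quartile factors Bcl2l11 in the CDS was -0.12 and with library totals alone it was -0.32, where Bak1 was -0.17. These scalings shifted all genes alike (medians -0.18 and -0.38), and relative to the median Bcl2l11 stayed 0.06 and Bak1 0.21 higher. Bcl2l11 was -0.028 with at least 20 counts in 3 libraries and -0.19 to 0.25 without each library (negative without activated replicate 3, -0.04, or resting replicate 2, -0.19). Bak1 was -0.020 to 0.41 without each library (-0.020 without resting replicate 2). Relative to the CDS and with 1 scaling, the 5' UTR of Bbc3 was 0.10, of Bcl2l1 0.064 and of Mcl1 0.0059, where the median of all genes was 0.32 (0.06 with a scaling per region) and each of these 3 stayed below it; without each library Bbc3 ran from -0.52 to 0.34 (0.34 and 0.09 without replicate 2 of activated or resting cells), Bcl2l1 from -0.46 to 0.34 (0.10 without activated replicate 2), Mcl1 from -0.65 to 0.21, Bcl2 from -0.14 to 0.40 and Pmaip1 from -1.05 to 0.14. The cause of the changes without a library was not tested.

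Differences in log2 ratio ran from 1.61 to 2.15 for Bcl2l1 over Bcl2 without each library, 0.32 to 0.96 for Mcl1 over Bcl2 (0.25 in exon counts, with overlap), 0.93 to 1.49 for Bcl2l1 over Mcl1, -0.56 to -0.08 for Bcl2l11 over Bcl2, -1.30 to -0.61 for Bcl2l11 over Mcl1 and -0.63 to -0.13 for Bax over Bak1. Deviations of same-numbered libraries correlated at 0.13, 0.07 and 0.23 across genes, and those of differently numbered libraries at 0.0075 or less. The numbers were not taken as pairs, since the labels name no shared mouse or day. That each library correlated best with its own number is a hint of pairing from the data. With the replicate block 3455 genes changed in the CDS.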
